A study of Mus musculus with 7 samples.

Results

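Trp53, the gene of the transcription factor p53, was examined with 8 genes that p53 activates directly, namely Cdkn1a, Mdm2, Phlda3, Ccng1, Trp53inp1, Aen, Zmat3 and Ei24. These 9 genes were taken as every non-control probe that carried one of these names, which gave 13 probes, out of 23687 named genes on the array. The RNA came from mouse CD8 T cells of lymph node that carry the OT-1 T cell receptor, which recognises the ovalbumin peptide SIINFEKL, in heterozygous form on a Rag-/- background, all activated in culture with 100 nM SIINFEKL for 24 h. The group labelled WT had 4 samples and the group labelled Lck-/- had 3. In the Lck-/- group the endogenous Lck is absent and a knocked-in, doxycycline-dependent Lck had been switched off by taking doxycycline out of the diet for 7 days, while no doxycycline treatment is given for the WT group. The sources used here do not give the age of the mice or the promoter that drives the inducible Lck. The series calls the samples biological replicates, and the question is how loss of Lck, the kinase that starts T cell receptor signalling, changes the response to antigen.

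In resting cells p53 protein is kept low because the ubiquitin ligase Mdm2, itself made from a p53 target gene, marks it for degradation. DNA damage or replication stress stabilises p53, which then binds a pair of short half-sites in DNA and switches on genes that halt the cell cycle, repair DNA or start cell death. Much of this control acts on the protein, so the Trp53 transcript need not follow p53 activity. In the T lineage the pathway is best known for the thymic lymphomas of mice that lack p53.

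All 7 arrays came from 1 slide and 1 scan. Spots well above background made up 46.6% to 61.1% of an array, and 0 were saturated. Signals are given as log2 relative to the 75th percentile of the array, so that 0 is that percentile, and differences are Lck-/- minus WT with the moderated standard error (SE) of limma. The 9 CD8 T cell markers were all measured, 8 of them well above background on every array. The probe from which Lck was read gave 7.44, 7.67, 7.36 and 6.04 on the arrays WT 1 to WT 4. On Lck-/- 1 to Lck-/- 3 it gave 8.02, 6.21 and 6.17. The libraries labelled WT 4 and Lck-/- 1 therefore went against their labels. Over all genes with 7 values, WT 4 correlated at 0.991 and 0.989 with Lck-/- 2 and Lck-/- 3, against 0.983 to 0.985 with the other WT arrays. Lck-/- 1 correlated at 0.989 with WT 3, against 0.981 and 0.986 with Lck-/- 2 and Lck-/- 3. With the other WT arrays it correlated at 0.982 to 0.984, so WT 3 was the only WT array closer to it than Lck-/- 3. Where this probe lies relative to the deleted part, and whether it also reads the knocked-in Lck, is not given. The comparison of the groups is given with and without both, and directions are those of the labels.

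Sequence close to the start of transcription was examined for matches to the p53 motif, and 7 of the 9 genes matched the RefSeq table of windows (build GRCm38.p6, 250 bases before to 50 bases after each start). The windows were searched for the p53 consensus half-site, 10 bases long and identical on both strands. Of these 7 genes, 6 had a window with a perfect half-site, as did 9.55% of the 27025 genes in the table. Cdkn1a is printed because the values of the other genes are set against it further on, and Mdm2 and Ccng1 because they act in the feedback on p53. Perfect half-sites, and any pair of half-sites placed side by side with at most 1 mismatch, are in capitals.
Cdkn1a, upstream of its first start, chr17:29090729-29090978, plus strand: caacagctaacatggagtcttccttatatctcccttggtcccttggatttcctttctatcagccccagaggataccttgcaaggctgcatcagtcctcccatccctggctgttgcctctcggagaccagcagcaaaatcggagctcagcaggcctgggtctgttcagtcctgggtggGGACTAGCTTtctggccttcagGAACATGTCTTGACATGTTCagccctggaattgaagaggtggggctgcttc
Mdm2, chr10:117710759-117711008, minus strand: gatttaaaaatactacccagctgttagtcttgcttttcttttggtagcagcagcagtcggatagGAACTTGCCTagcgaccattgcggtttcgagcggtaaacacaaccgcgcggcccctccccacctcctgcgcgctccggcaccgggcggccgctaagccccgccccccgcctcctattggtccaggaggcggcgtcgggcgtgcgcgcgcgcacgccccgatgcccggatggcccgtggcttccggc
Ccng1, chr11:40755287-40755536, minus strand: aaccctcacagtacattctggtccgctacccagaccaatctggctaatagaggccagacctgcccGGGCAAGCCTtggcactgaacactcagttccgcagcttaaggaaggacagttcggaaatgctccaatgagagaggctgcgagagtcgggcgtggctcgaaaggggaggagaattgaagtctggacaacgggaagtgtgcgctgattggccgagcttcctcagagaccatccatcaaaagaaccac
The Cdkn1a window held a perfect half-site, GGACTAGCTT, that begins 73 bases before the start, and the 20-base pair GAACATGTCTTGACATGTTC that begins 51 bases before it and has 1 mismatch. Such a side-by-side pair was present in 0.0548% of all 32851 windows. The window of the other Cdkn1a start, 250 bases upstream at chr17:29093519-29093768, had no match. Perfect half-sites also lay 75 bases before the start of Trp53 (GGACTTGCCC), 121 bases before the downstream start of Aen (GGGCTTGTCC) and 10 bases before that of Ei24 (GGGCATGCCC). The Phlda3 window had none. These letters mark a match only.

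Trp53 itself was read at similar levels in both groups. Its probe (mm9 chr11:69404204-69404263, plus strand) read 1.99, 1.34, 1.27 and 1.83 on WT 1 to WT 4 and 1.64, 2.15 and 1.28 on Lck-/- 1 to Lck-/- 3. The highest array was Lck-/- 2 and the lowest were WT 3 and Lck-/- 3, so the groups overlapped. The WT mean was 1.61 ± 0.36 (SD, n = 4) and the Lck-/- mean 1.69 ± 0.44 (SD, n = 3). They differed by 0.08 (SE 0.26; adjusted p = 0.988 with limma), and by -0.13 when the array median served as reference. Both spots of this probe agreed on every array, with an SD of 0.02 to 0.07.

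Cdkn1a encodes p21, the inhibitor of cyclin-dependent kinases through which p53 arrests the cell cycle. Its main probe (A_51_P363947, mm9 chr17:29237377-29237436, plus strand) read 3.21, 4.38, 2.74 and 3.27 on WT 1 to WT 4 and 2.97, 3.76 and 2.84 on Lck-/- 1 to Lck-/- 3. WT 2 was highest and Lck-/- 2 next, and the other 5 arrays lay below both. This probe was printed 10 times on each array, and its spots had an SD of 0.02 to 0.07 within an array, against 0.69 between the 4 WT arrays and 0.50 between the 3 Lck-/- arrays. These repeats cover printing and scanning only, not labelling, hybridization or scaling. The group means were 3.40 and 3.19, a difference of -0.21 (SE 0.40, limma adjusted p = 0.968). Without WT 2 the difference was 0.11, so that 1 array set its direction.

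Both other Cdkn1a probes were also well above background on all 7 arrays. A_55_P1986282 (mm9 chr17:29227986-29228045) begins at base 55 of NM_001111099, the transcript variant listed for it, and so lies near that variant's 5′ end. It read -1.95, -1.14, -3.47 and -2.46 on WT 1 to WT 4 and -2.85, -1.75 and -2.81 on Lck-/- 1 to Lck-/- 3, with WT 2 and Lck-/- 2 again highest in their groups. Its correlation with the main probe was 0.93 over the 7 arrays, a description over arrays that share 1 slide. A_55_P1976204 (mm9 chr17:29235299-29235358) read -2.52, -1.59, -3.74 and -2.60 in WT and -1.65, -2.13 and -2.16 in Lck-/-. It differed by 0.63 (SE 0.45, limma adjusted p = 0.837 over all probes), opposite in sign to the -0.21 of each other probe. With the mean of the 3 probes in place of the main one, the Cdkn1a difference was 0.07.

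**Figure D1:**
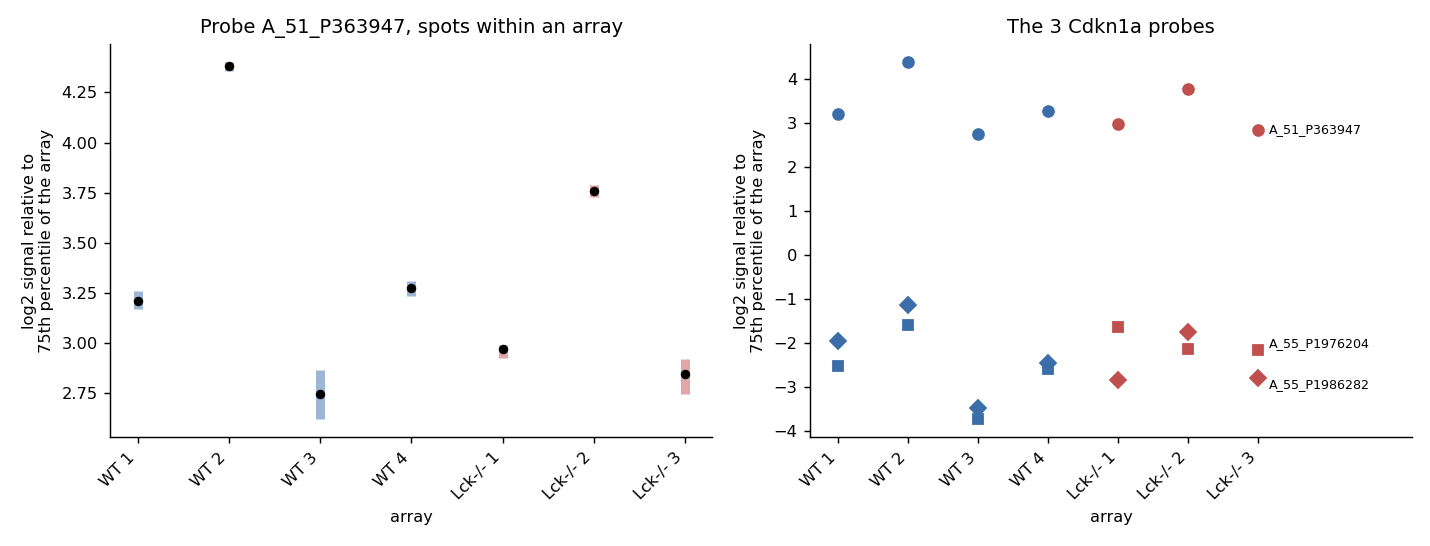
The left panel shows log2 signal relative to the 75th percentile of the array for the repeated spots of the main Cdkn1a probe, with a bar from the lowest to the highest spot and a point at their mean. The right panel shows the 3 Cdkn1a probes (circles for the main probe), WT in blue and Lck-/- in red. Spots within an array lie close together, and WT 2 and Lck-/- 2 are the highest arrays for the main probe.

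Mdm2 and Ccng1 belong to the negative feedback on p53. Mdm2 (mm9 chr10:117126010-117126069, minus strand) varied least between arrays of these genes, with a range of 0.60. It read 4.94, 5.11, 4.59 and 4.76 on WT 1 to WT 4 and 4.82 and 4.52 on Lck-/- 2 and Lck-/- 3. Its spot on Lck-/- 1 was marked as an outlier by the scanner software and was left out. The difference was -0.18 (SE 0.20, limma adjusted p = 0.918, n = 4 and 2), or -0.05 with that spot kept. Ccng1 encodes cyclin G1, which recruits a phosphatase to Mdm2. Its probe (mm9 chr11:40562427-40562486, minus strand) read 4.09, 4.10, 3.06 and 3.24 in WT and 3.15, 3.87 and 3.26 in Lck-/-, so WT 1, WT 2 and Lck-/- 2 stood above the other 4. The difference was -0.20 (SE 0.32, limma adjusted p = 0.959).

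Phlda3, which restrains the kinase AKT, ranged more widely between arrays than any other of these genes. It (mm9 chr1:137665642-137665701, plus strand) read 4.47, 5.35, 3.12 and 3.69 on WT 1 to WT 4 and 3.37, 4.50 and 3.01 on Lck-/- 1 to Lck-/- 3, a range of 2.33. WT 2, Lck-/- 2 and WT 1 were the high arrays, so high values occurred in both groups. The means were 4.16 ± 0.97 (SD, n = 4) and 3.63 ± 0.77 (SD, n = 3), 1.44-fold lower in Lck-/- (difference -0.53, SE 0.56, limma adjusted p = 0.905). Without WT 2 the difference was -0.13.

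Trp53inp1, which encodes a nuclear protein that favours p53-dependent death and autophagy, had the largest difference of the 9 genes. Its main probe (mm9 chr4:11101174-11101233, plus strand) read 3.11, 3.97, 2.24 and 2.47 in WT and 1.66, 2.73 and 2.03 in Lck-/-. Both lowest arrays were Lck-/- ones, but Lck-/- 2 lay above WT 3 and WT 4. The means were 2.95 ± 0.78 (SD, n = 4) and 2.14 ± 0.54 (SD, n = 3), 1.75-fold lower in Lck-/- (difference -0.81, SE 0.44, limma adjusted p = 0.759). The difference ran from -1.10 without Lck-/- 2 to -0.47 without WT 2. Its other probe (mm9 chr4:11092530-11092589) differed by -0.47 (SE 0.31, limma adjusted p = 0.824 over all probes), the same direction.

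Zmat3, an RNA-binding protein that acts in p53-dependent growth control, and Ei24, an endoplasmic reticulum protein of the p53 response, followed the same order of arrays. Zmat3 (mm9 chr3:32233831-32233890, minus strand) read 2.71, 3.40, 1.54 and 2.31 in WT and 1.87, 2.68 and 2.10 in Lck-/-. Ei24 (mm9 chr9:36587287-36587346, minus strand) read 1.67, 1.92, 0.92 and 1.58 in WT and 1.24, 1.59 and 1.34 in Lck-/-. In both genes WT 2 was the highest array and WT 3 the lowest, so that the WT group enclosed all 3 Lck-/- arrays. The differences were -0.28 (SE 0.42, limma adjusted p = 0.954) for Zmat3 and -0.13 (SE 0.24, limma adjusted p = 0.968) for Ei24.

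Aen, a nuclease that takes part in p53-dependent apoptosis, had, with Trp53, a mean that was higher in Lck-/-. Its probe A_55_P2145804 (mm9 chr7:86053207-86053266, plus strand) read 6.37, 6.43, 5.85 and 6.51 on WT 1 to WT 4 and 7.38, 6.46 and 6.34 on Lck-/- 1 to Lck-/- 3. A single array, Lck-/- 1, stood above all others. The difference was 0.44 (SE 0.28, limma adjusted p = 0.81) and 0.11 without that array. A second probe, A_55_P2141860, is shifted by 10 bases and shares most of its target. It read 0.09 to 0.19 below the first on the other 6 arrays but 0.93 below it on Lck-/- 1, where it read 6.45, and its difference was 0.20 (SE 0.20, limma adjusted p = 0.886 over all probes). The high value on Lck-/- 1 was therefore not seen to the same extent by the overlapping probe.

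**Figure D2:**
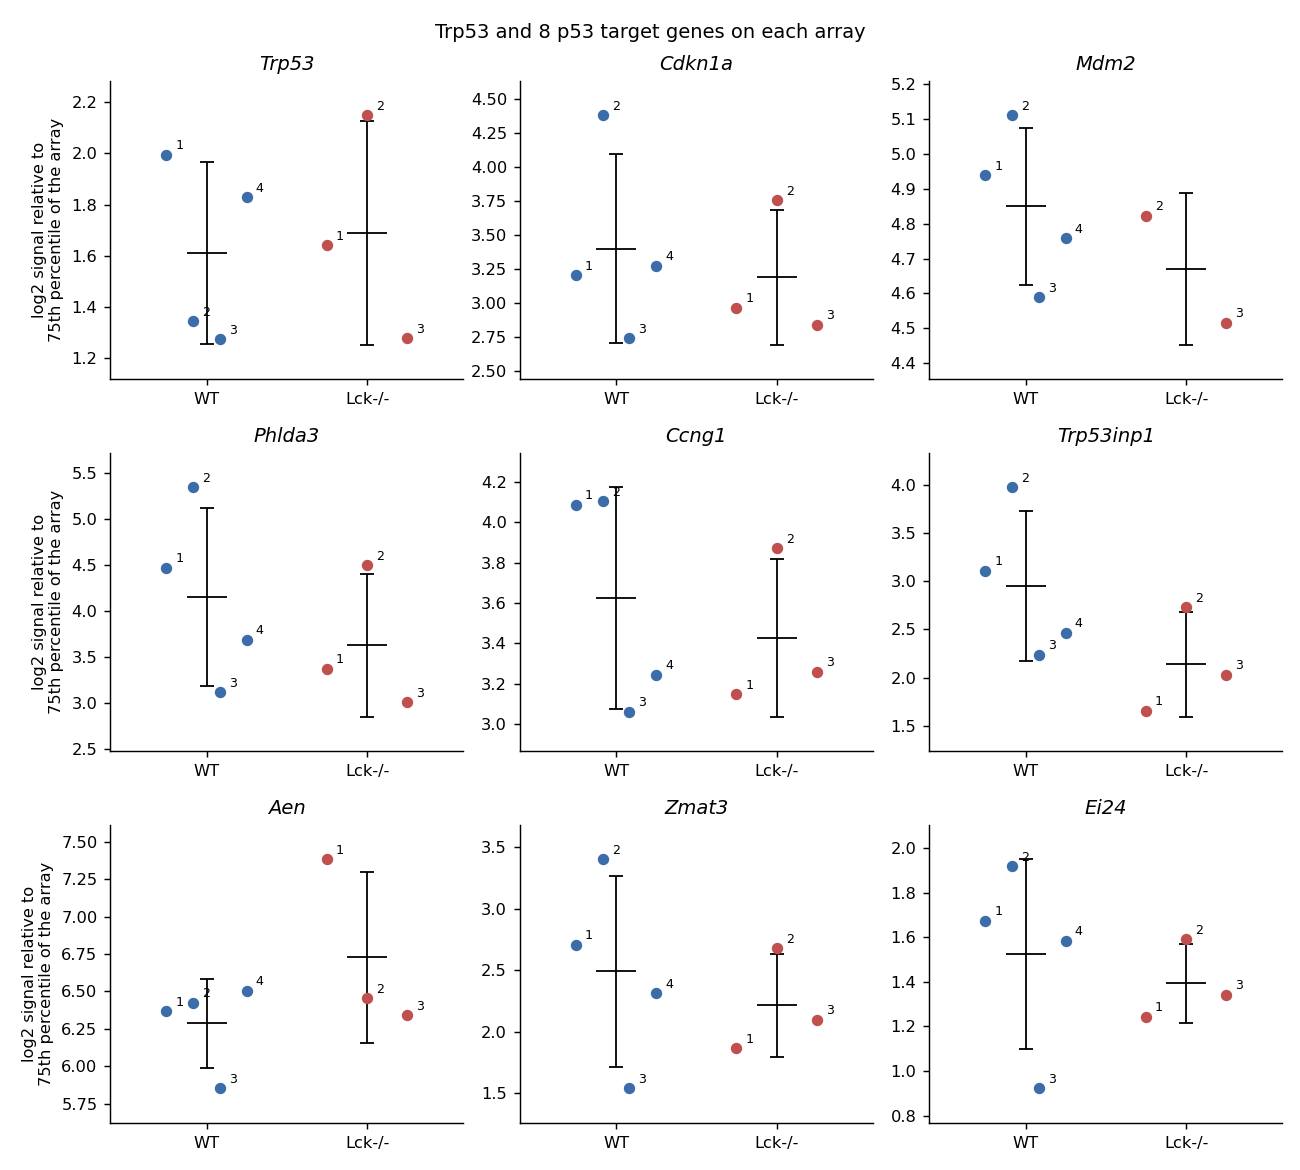
Log2 signal relative to the 75th percentile of the array for each gene, with 1 point an array (WT blue, Lck-/- red, labelled with the replicate number) and the group mean ± SD in black; each panel has its own vertical scale. The groups overlap in all 9 panels, and WT 2 is the highest array for 7 genes.

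None of the 9 genes differed between the groups beyond the spread of the samples. With limma over 14674 genes, 0.00% of genes passed an adjusted p of 0.05, and 0 of these 9 did. Without WT 4 and Lck-/- 1, 59 genes passed, none of them among the 9. At an unadjusted p under 0.05 the share of all genes was 7.17%, and again 0 of the 9 genes passed without a block for the replicate number. The groups did not overlap for 7.22% of all genes and for 0 of the 9. The difference was below 0 for 7 of the 9 genes, with Trp53 and Aen above 0, and for 42.6% of all genes. That share of all genes was 48% with quantile normalization and 74.4% with the array median as reference, which shifted the median of all differences from 0.04 to -0.16; the count for the 9 genes was 7 and 8. The median difference of the 9 was -0.20. It was -0.01 without WT 2, -0.39 without WT 3, -0.42 without Lck-/- 2, -0.10 without Lck-/- 1 and -0.11 without Lck-/- 3. With the array median as reference it was -0.40, and it was -0.16 without both WT 4 and Lck-/- 1. Gene by gene, without both, the differences were 0.18 for Trp53, -0.14 for Cdkn1a, -0.21 for Mdm2, -0.56 for Phlda3, -0.18 for Ccng1 and -0.73 for Trp53inp1. Aen came to 0.19, Zmat3 to -0.16 and Ei24 to -0.04, each more than 1.5 times closer to 0 than with all arrays. Slide row held both groups: in row 1 (2 WT and 2 Lck-/- arrays) the differences of Cdkn1a, Phlda3, Ccng1 and Zmat3 were -0.66, -1.04, -0.38 and -0.49, and in row 2 (2 and 1) they were 0.52, 0.42, 0.21 and 0.17, of opposite sign. Trp53inp1 was at -1.26 and -0.06, Mdm2 at -0.33 and -0.03, Ei24 at -0.13 and -0.04, Aen at 0.73 and 0.02, and Trp53 at 0.15 and 0.24. In bulk RNA, fewer cells of a type and less RNA per cell cannot be told apart.

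**Figure D3:**
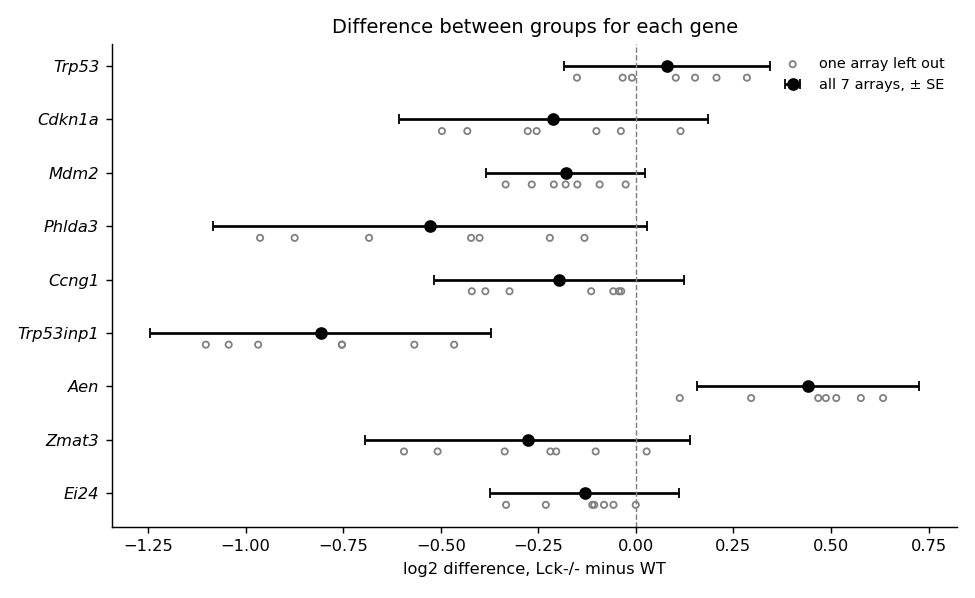
Log2 difference between the groups, Lck-/- minus WT, for each gene, with the SE from limma on all 7 arrays (black) and the value when 1 array is left out (open grey circles). Trp53inp1 lies farthest below 0 at -0.81 and Aen farthest above it at 0.44; Trp53, Cdkn1a and Zmat3 cross 0 when single arrays are left out.

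A subset of 6 targets varied together between arrays. With the 75th percentile as reference, the highest and lowest arrays for their mean were both WT. After their values were seen, Cdkn1a, Phlda3, Ccng1, Trp53inp1, Zmat3 and Ei24 were grouped because each has 7 values and a like order of arrays. Relative to the WT mean, the mean of these 6 genes was 0.19, 0.83, -0.75 and -0.26 on WT 1 to WT 4 and -0.65, 0.16 and -0.59 on Lck-/- 1 to Lck-/- 3. Of single genes, Phlda3 was lowest on Lck-/- 3 and Trp53inp1 on Lck-/- 1. By the mean, WT 2 was high and WT 3 low within one group, and Lck-/- 2 stood above the other Lck-/- arrays. WT 3 also had the most outlier spots (1549, against 166 to 557 on the other arrays) and the highest Cd4 signal, a marker of the other main T cell lineage (5.47, against 1.69 to 2.05 on the other WT arrays, 1.78 on Lck-/- 2 and 3.67 on Lck-/- 3, with the Lck-/- 1 spot left out as an outlier). Of the other listed CD4 T cell markers, Foxp3 read -2.06 on WT 3, within the other WT arrays (-2.39 to -1.94). Cd40lg was not tested. The part of the outlier spots or of the Cd4 signal in the low values was not tested. Pearson correlations over the 7 arrays for the 15 pairs among the 6 genes ran from 0.78 to 0.96, from 0.77 to 0.96 after each group was centred, and from 0.57 to 0.94 without both arrays farthest from the median of the first gene. Mdm2, with 6 values, correlated with them at 0.85 to 0.98. Its missing value is the outlier-flagged spot on Lck-/- 1, an array where the mean of the 6 genes was low. Keeping that spot moved the Mdm2 difference from -0.18 to -0.05, so it read above the mean of the other Lck-/- arrays. The correlation with that spot kept was not computed, and the range given rests on leaving it out. For Trp53 and Aen with the 6 genes the range was -0.33 to 0.42. These values describe arrays that share 1 slide and 1 scaling factor each, and the genes were chosen for their likeness.

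The scaling of an array moves all its genes together, and WT 2 had the lowest 75th percentile of signal (353.6) and WT 3 the highest (615.4). With no scaling at all the mean of the 6 genes was again highest on WT 2 (0.48). Lck-/- 2 (0.16) then came before WT 1 (0.12), the reverse of their order with the 75th percentile, while the lowest values were on Lck-/- 3 (-0.50) and Lck-/- 1 (-0.49), with WT 3 at -0.31. With quantile normalization it was 0.87 on WT 2, 0.12 on Lck-/- 2 and -0.70 on WT 3. On WT 2, leaving out the scaling lowered Mdm2 from 0.26 to -0.09, Ei24 from 0.39 to 0.04 and Ccng1 from 0.48 to 0.13. Mdm2 was then highest on WT 3 (0.19), and Ei24 and Ccng1 on WT 1. The part of the scaling in the low position of WT 3 was not tested further.

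**Figure D4:**
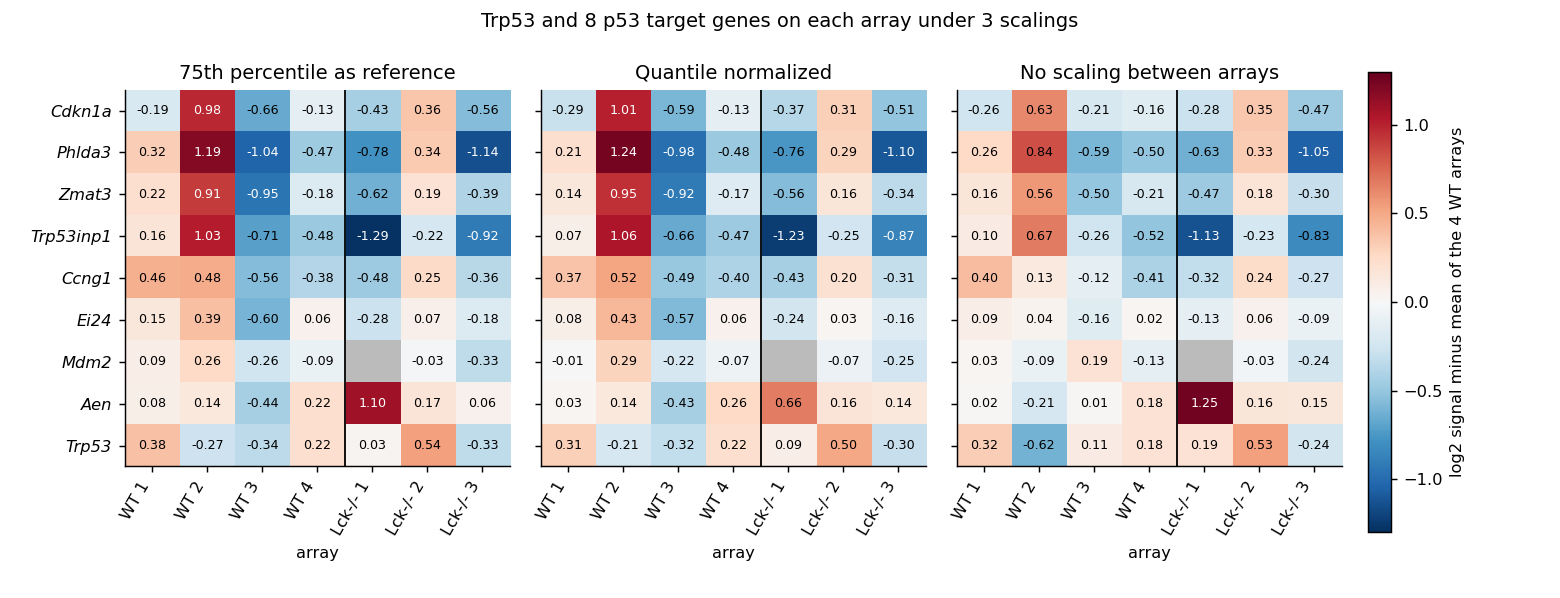
Log2 signal of each gene on each array minus the mean of the 4 WT arrays, with the 75th percentile as reference, after quantile normalization, and with no scaling; the line parts WT from Lck-/- arrays and grey marks the Mdm2 spot left out. Cdkn1a, Phlda3, Zmat3 and Trp53inp1 are highest on WT 2 in each panel, Ccng1 and Ei24 are so except without scaling, where WT 1 is highest, and Aen is highest on Lck-/- 1.

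The likeness of each gene to Cdkn1a was ranked among all genes; the 5 targets grouped with Cdkn1a had been chosen for it, so their ranks are no independent finding. Among 14007 other genes with 7 values, Phlda3 ranked 31 by Pearson correlation with Cdkn1a (0.93), Zmat3 47 (0.92), Trp53inp1 220 (0.85), Ei24 260 (0.84) and Ccng1 660 (0.78). Trp53 ranked 6810 (0.20) and Aen 8571 (0.03). With quantile normalization the ranks were 44 for Phlda3, 73 for Zmat3 and 823 for Ccng1. The 5 genes most like Cdkn1a were Orai1 (0.99), which encodes a calcium channel of T cells, Tmem120a (0.98), Krt31 (0.97), Rbm15b (0.97) and Efhd2 (0.96). With 7 points and this many genes, high correlations are reached by many genes, and the ranks are a description.

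The wider p53 pathway was read from lists of 64 further genes, of which 61 were tested. None passed an adjusted p of 0.05 with limma, 1 was lower at an unadjusted p under 0.05 (2.21% of all genes), and 3 were lower without overlap (2.15% of all genes). Among 20 upstream regulators 10 had a difference above 0 and 10 below, with a median of 0.00 (8, 12 and -0.08 without WT 4 and Lck-/- 1). The ribosomal proteins Rpl11 and Rpl5, which bind Mdm2, differed by 0.01 (SE 0.16) and 0.15 (SE 0.14), the deubiquitinase Usp7 by 0.00 (SE 0.13) and the checkpoint kinase Chek1 by 0.34 (SE 0.18). Ppm1d, a phosphatase that switches p53 off, read 1.07, 0.96, 0.75 and 0.85 in WT and 0.56, 0.74 and 0.54 in Lck-/-. Its groups did not overlap, and the difference was -0.29 (SE 0.14, limma adjusted p = 0.726). The acetyltransferase Kat5 also parted the groups, at -0.14 (SE 0.12). The relatives Trp63 and Trp73 differed by 0.13 (SE 0.24) and -0.07 (SE 0.20).

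Other targets with roles in the cell cycle, among them the spindle proteins Gtse1, Psrc1 and Ckap2, had a difference below 0 for 7 of 8 genes, with a median of -0.28. Gtse1, which works at the mitotic spindle and moves p53 out of the nucleus, read 2.11, 1.93, 1.11 and 0.85 in WT and 0.65, 0.76 and 0.24 in Lck-/-. It was 1.93-fold lower in Lck-/- without overlap (difference -0.95, SE 0.33, limma adjusted p = 0.63). Sfn, a 14-3-3 protein, differed by -0.82 (SE 0.79), with WT 4, Lck-/- 2 and Lck-/- 3 low at -2.10, -2.28 and -2.23 and the other 4 arrays between -0.05 and 0.45. Without WT 4 and Lck-/- 1 the list had 6 of 8 genes below 0 and a median of -0.60. Sfn then differed by -2.25 (SE 0.17, limma adjusted p = 0.011), the 1 gene of the 61 to pass, and Gtse1 by -1.22 (SE 0.35, limma adjusted p = 0.23). WT 4 and Lck-/- 1 were picked by their Lck signal after the data were seen. The arrays low for Sfn, WT 4, Lck-/- 2 and Lck-/- 3, were also the lowest for the Lck probe. The Sfn result therefore depends on that choice of arrays and is no independent finding. The kinase Plk3, the spindle protein Psrc1 and the antiproliferative Btg2 differed by 0.02 (SE 0.19), -0.12 (SE 0.41) and -0.01 (SE 0.27).

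Targets of the cell death arm had a difference below 0 for 8 of 11 tested genes, with a median of -0.20 (7 of 11 and -0.29 without WT 4 and Lck-/- 1). Pmaip1, which encodes the BH3-only protein Noxa, read 1.58, 2.11, 0.67 and 0.71 in WT and 0.62, 0.78 and 0.72 in Lck-/-, so WT 1 and WT 2 were high and the rest alike. Its difference was -0.56 (SE 0.35, limma adjusted p = 0.804). The membrane protein Perp differed by -0.54 (SE 0.26), the pore former Bax by 0.04 (SE 0.26), Siva1 by -0.05 (SE 0.22) and the mitochondrial reductase Fdxr by 0.34 (SE 0.15). Of 20 repair and metabolism targets, 10 lay above 0 and 10 below, with a median of 0.00 (9, 11 and -0.05 without both arrays). Rps27l, Gpx1 and Ddit4, an inhibitor of mTORC1, differed by -0.13 (SE 0.18), 0.12 (SE 0.18) and 0.47 (SE 0.29). Cpt1c, dim on most arrays, differed by -0.44 (SE 0.42), and Rrm2b, a ribonucleotide reductase subunit, by 0.29 (SE 0.18).

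**Figure D5:**
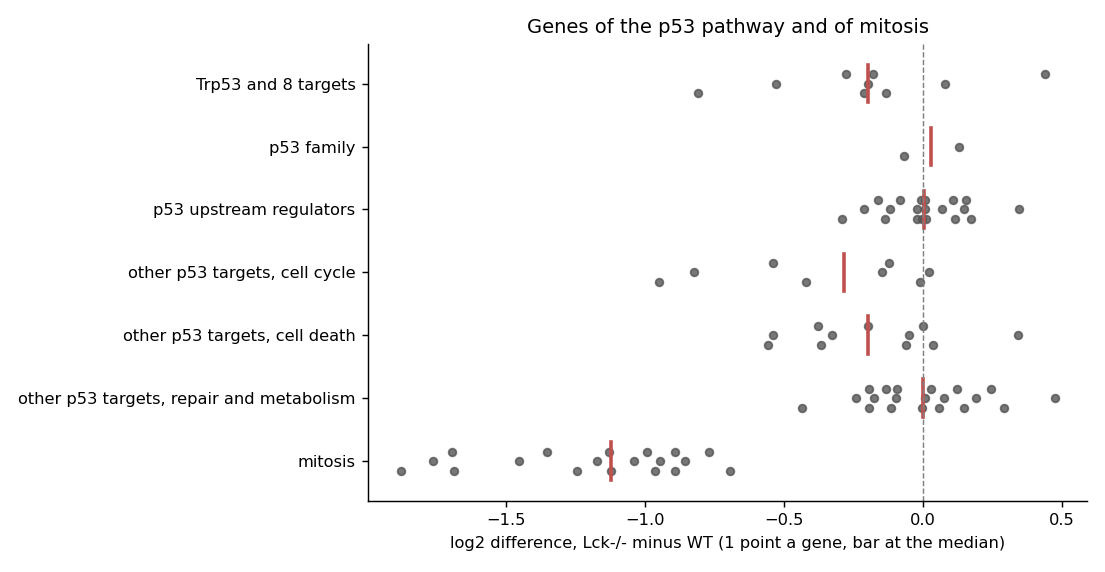
Log2 difference, Lck-/- minus WT, with 1 point for each tested gene and a red bar at the median of each list. The medians of the p53 lists lie between -0.28 and 0.03, while all 19 mitosis genes lie below 0 with a median of -1.12.

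Mitosis genes and natural killer (NK) cell markers varied between the same samples. All 19 tested mitosis genes had a negative difference, 14 of them with an unadjusted p under 0.05 (2.21% of all genes were lower at that level) and none past the adjusted threshold. Without WT 4 and Lck-/- 1 all 19 were again below 0, 18 of them at an unadjusted p under 0.05 and none past the adjusted threshold, with a median of -1.62. In that fit 703 of all 14674 genes were lower at the unadjusted level. With all 7 arrays, Mki67, the proliferation marker, and Birc5 differed by -1.45 (SE 0.51) and -0.89 (SE 0.37), Cdca8 by -0.89 (SE 0.39), Nusap1 by -1.88 (SE 0.68) and Ube2c by -1.76 (SE 0.59). Relative to the WT mean, the mitosis list mean was 0.87, -0.60, 0.46 and -0.70 on WT 1 to WT 4 and -0.58, -1.48 and -1.51 on Lck-/- 1 to Lck-/- 3. The array with the highest p53 target signal, WT 2, was thus low among WT for mitosis genes, and WT 3, the lowest with the 75th percentile or quantiles but not with the median, the deposited table or no scaling, was high, whereas WT 1 was high in both. All 9 NK markers had a higher mean in Lck-/-, 0 of them at an unadjusted p under 0.05 (4.96% of all genes), with list means of -0.70, -0.10, -1.03 and 1.71 on WT 1 to WT 4 and 0.42, 2.15 and 0.61 on Lck-/- 1 to Lck-/- 3. The 9 CD8 T cell markers also had higher means in Lck-/-, with a median difference of 0.38 and 1 gene without overlap (5.07% of all genes). Of the myeloid and dendritic cell markers 8 were tested, with a median difference of 0.47. The medians without WT 4 and Lck-/- 1 were 1.83 for the NK markers, with 7 of 9 at an unadjusted p under 0.05, 0.30 for the CD8 markers and 0.83 for the myeloid ones. In that fit 1609 of all 14674 genes were at that level in either direction, 703 of them lower. WT 4, left out there, had the highest NK mean of the WT arrays, so the NK count depends on leaving it out. The 3 tested erythroid markers had list means of -1.66, 0.95, -1.38 and 2.10 in WT and -1.29, 0.41 and -0.45 in Lck-/-. With a term for the mean of the NK markers in the fit, the Trp53inp1 difference was -0.91 (SE 0.53), that of Cdkn1a -0.45 (SE 0.45) and that of Trp53 -0.14 (SE 0.28). The part of mitosis or NK signal in the p53 values was not tested otherwise.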

How the data were processed

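The deposited scanner files give spot intensity for 1-colour (Cy3) arrays and, per the file headers, come from Agilent Feature Extraction 10.7.3.1, with probe positions on mm9. The value table deposited by the authors is on a log2 scale, normalized between arrays by a method that the sources used here do not give; it served only as an alternative. The submitters' processing notes name limma.

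From the processed intensity, log2 minus the 75th percentile of the array over non-control spots was taken. Outlier-flagged spots were left out, spots of a probe averaged, and a probe kept when 3 or more of the 7 arrays had it well above background. All 13 probes of the 9 genes passed. A gene was read from its probe with the highest mean. The groups were compared with limma 3.58.1 in R 4.3.3 (lmFit, eBayes, two-sided) over 14674 genes, with Benjamini-Hochberg adjustment and a threshold of 0.05. The number of arrays limits the precision, and the p-values set each difference against the spread between these samples within the labelled groups.

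Named genes were the 9 genes and, from each pathway list and the mitosis list, up to 3 with the highest mean signal and 2 with the largest difference, plus the 5 most like Cdkn1a. Kat5 was named after its values were seen. The genes and lists were chosen with earlier results of these data known. Alternatives were other normalizations, background corrections, references, filters, probe means, blocks, weights, a variance trend and leaving out arrays. Outlier-flagged spots kept, the NK covariate and leaving out WT 4 with Lck-/- 1 were added after seeing the data. Exons and untranslated parts under the probes were not analysed here. Samples were not treated as pairs.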

Additional observations from a re-analysis of the deposited data

How the results depend on the processing

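None of the 9 genes passed the threshold in any of the 21 alternatives. Mdm2, Phlda3, Ccng1, Trp53inp1, Aen and Ei24 kept their direction wherever they were tested; Mdm2, whose spot on Lck-/- 1 was left out, drops out when all 7 arrays must be above background. Trp53 reversed with the median as reference (-0.13), with array weights (-0.12), with a term for the NK marker mean (-0.14), without WT 2 (-0.01), without WT 3 (-0.03) and without Lck-/- 2 (-0.15). Cdkn1a reversed with the mean of its probes (0.070) and without WT 2 (0.11), and Zmat3 without WT 2 (0.028). With 1 array left out the ranges were -0.15 to 0.28 for Trp53, -0.50 to 0.11 for Cdkn1a and -0.59 to 0.028 for Zmat3. The cause of the reversals under array weights and the NK covariate was not tested. The median difference of the 9 genes stayed negative in all 21, between -0.42 and -0.01, both when 1 array was left out. The count of all genes past the threshold was 1 with the replicate block (title number) and 1 with array weights, 0 to 1 when 1 array was left out, and 59 without WT 4 and Lck-/- 1, arrays picked by their Lck signal; it was 0 otherwise, and none of the 9 genes was among the calls. With the replicate block the Trp53inp1 and Phlda3 differences were -0.97 (SE 0.28) and -0.68 (SE 0.25), with limma adjusted p = 0.305 and 0.407; both had an unadjusted p under 0.05 there (0.014 and 0.033), as had 1561 of all genes, so 2 of the 9 genes did against 0 without the block. The titles' numbers were used, but the deposited files carry other numbers for Lck-/- 2 and Lck-/- 3, and these values depend on that choice. Same-numbered arrays correlated at 0.11, 0.06 and -0.03 after group centring, so the numbers were not taken as pairs. With slide row as a block they were -0.78 and -0.46. Groups of 4 and 3 arrays limit what could be detected.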
